A study of Mus musculus with 59 samples.

Results

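The H3K27ac peak list and the H3K27me3 island list of the same mouse brainstem tumour were overlaid for each of 11 tumours, on chromosomes 1 to 19. All tumours of the series with both lists entered: 6 K27M tumours (numbered 1 to 6 in the labels) and 5 tumours with the tagged wild-type histone (WT, numbered 7 to 11), which makes 22 of the 59 samples of the series. Each H3K27ac peak was taken as 1 site, placed at its summit. Of 530214 autosomal sites summed over tumours, 57393 lay inside 1 of the 256798 islands of their own tumour. The K27M tumours carried the knock-in allele H3f3aLSL-K27M-Tag/+, and the WT tumours carried the matched allele H3f3aLSL-WT-Tag/+. All 11 tumours also carried Nestin-creERT2, LSL-PDGFRαV544ins and Trp53flox/flox, so the controls share the mutant receptor and the loss of Trp53. Cre was driven from Nestin, a gene of neural precursors, and an LSL allele is silent until Cre removes a stop cassette. The labels give no age or time. By the labels, 4 K27M tumours and 1 WT tumour were male, and 2 K27M and 4 WT tumours were female.

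Lysine 27 of histone H3 can carry either acetylation or methylation, not both at once on the same tail. H3K27me3 is placed by Polycomb repressive complex 2 and spreads over silent genes in broad domains. H3K27ac is placed by the acetyltransferases p300 and CBP on active promoters and enhancers, in narrow peaks. The K27M form of H3.3 found in diffuse midline gliomas replaces this lysine by methionine and inhibits Polycomb repressive complex 2. The tumours are bulk tissue. Marks listed at the same place may sit in different cells or on different alleles, and fewer cells with a mark and less mark per cell cannot be told apart.

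The lists held 35530 to 60274 autosomal sites per tumour, and 10716 to 42642 islands that covered 67.1 to 302.0 Mb and held 1878972 to 14400936 reads. The sources used here give no total read depth, and an island list shows neither background nor a region just short of a call. The groups overlapped in each of these counts, and so they did in the density of sites outside islands, 18.3 per Mb ± 3.28 (SD, n = 6) for K27M and 19.2 per Mb ± 3.62 (SD, n = 5) for WT tumours. In the density of sites in islands, WT tumour 8 lay below and WT tumour 11 above the other 3 WT tumours, and the values of the tested measures without both are given too. WT tumour 9, labelled male, had no H3K27ac peak on chromosome Y against 3 or 4 in the male K27M tumours, but its 85 islands on chromosome X lay among the 80 to 237 of those males and under the 3155 to 11846 of the female tumours.

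In K27M tumours, H3K27ac sites were denser in the interior of the tumour's own islands than outside islands, and in 4 of 5 WT tumours they were not. An interior is the part of an island more than 2 kb from either end, and only islands wider than 4 kb have one. In K27M tumours 1 to 6 the interiors held 52.4, 36.1, 45.9, 35.4, 44.2 and 52.5 sites per Mb. In WT tumours 7 to 11 they held 19.1, 6.21, 14.4, 23.4 and 35.9 sites per Mb. The K27M tumours lay above the first 4 WT tumours, while WT tumour 11 lay among them, just below tumour 2. Divided by the same tumour's density outside islands, interiors held 2.44-fold ± 0.277 (SD, n = 6) as many sites per Mb in K27M and 1.01-fold ± 0.551 (SD, n = 5) for WT tumours. The ratios ran from 1.94 to 2.67 in K27M tumours, and in WT tumours 7 to 11 they were 0.862, 0.404, 0.894, 0.990 and 1.91. The groups did not overlap, although WT tumour 11 nearly reached K27M tumour 2. Outside here means all autosomal length beyond the islands. Up to 50 kb from an island, bin means were 22.3 to 29.6 sites per Mb in K27M and 17.9 to 29.4 in WT tumours. The size of the ratio therefore depends on this reference.

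On the log2 scale this ratio was 1.28 ± 0.17 (SD, n = 6) for K27M and -0.15 ± 0.80 (SD, n = 5) for WT tumours, a difference of 1.43 ± 0.36 (SE). An exact permutation test, two-sided, gave p = 0.00433, the smallest value for 6 against 5 tumours, and 0.026 after Benjamini-Hochberg adjustment over the 6 measures of position, width and reads. With genotype permuted only within sex p was 0.0267, the smallest that exact test can give, and 0.16 after adjustment. Without WT tumours 8 and 11 the difference was 1.41 on the log2 scale, the groups did not overlap, and the exact test gave an adjusted p = 0.0714. Its unadjusted p was 0.0238, the smallest that the tumours left can give. Covered island length differs widely between tumours, and the difference was 1.51 when every tumour was reduced to the same 67.1 Mb of its densest islands and 1.42 with the same 10716 islands of most reads.

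**Figure D1:**
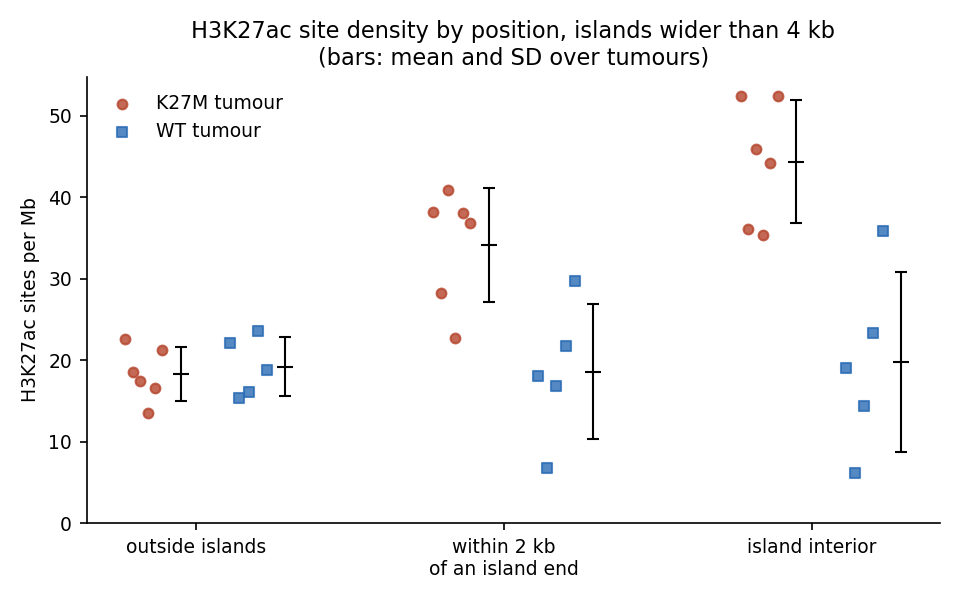
H3K27ac sites per Mb (vertical axis) outside islands, within 2 kb of an island end and in the island interior, for islands wider than 4 kb. Each point is 1 tumour (circles K27M, squares WT) and the bars are the mean and SD over tumours. Outside islands the groups lie at the same level, and in the interior the K27M mean is 44.4 against 19.8 sites per Mb.

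The share of all sites that lay inside own islands moved the same way with more overlap. It was 14.2%, 15.7%, 20.7%, 10.4%, 7.34% and 10.5% in K27M tumours 1 to 6. It was 6.95%, 3.29%, 8.49%, 11.96% and 5.83% in WT tumours 7 to 11. The WT tumour with most covered length, number 10, exceeded 3 K27M tumours. The means were 13.1% ± 4.77 (SD, n = 6) and 7.30% ± 3.22 (SD, n = 5), and the exact permutation test gave p = 0.0433, which did not pass after adjustment (0.0866). In female tumours alone the means were 8.91% and 7.01%. Without WT tumours 8 and 11 they were 13.1% and 9.13% (exact permutation p = 0.214, adjusted 0.321). This share grows with the length an island list covers. At the same 67.1 Mb per tumour it was 7.12% in K27M and 3.15% in WT tumours, without overlap, and the adjusted p of the exact test was 0.013. Islands with at least 1 site made up 13.4% to 22.1% of islands in K27M and 3.78% to 12.4% in WT tumours.

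Within islands, K27M tumours carried fewer sites per Mb near the ends than in the interior. In islands wider than 4 kb, the zone within 2 kb of an end held 38.1, 28.3, 40.8, 22.7, 38.1 and 36.8 sites per Mb in K27M tumours 1 to 6, each below the same tumour's interior. The values were 18.1, 6.77, 16.8, 21.8 and 29.7 in WT tumours 7 to 11, above the interior in tumours 8 and 9 and below it in the other 3. Edge density was 0.768-fold ± 0.095 (SD, n = 6) of the interior density in K27M and 0.992-fold ± 0.134 (SD, n = 5) for WT tumours. The log2 ratios were -0.39 ± 0.18 and -0.02 ± 0.20, a difference of -0.37 ± 0.11 (SE), with p = 0.013 by the exact permutation test and 0.039 after adjustment. The groups overlapped, because WT tumour 11 lay lower than K27M tumours 3 and 5. This call was lost on leaving out any of K27M tumours 1, 2, 4 and 6 or WT tumours 7 to 10, with differences of -0.39 to -0.31, and without WT tumours 8 and 11 together, at -0.40. Over all islands, 44.1% ± 10.5 (SD, n = 6) of in-island sites in K27M and 53.3% ± 9.67 (SD, n = 5) for WT tumours lay within 2 kb of an end, p = 0.173 by the exact permutation test and 0.26 after adjustment. Without WT tumours 8 and 11 that difference was -3.07 percentage points in place of -9.26. The zone itself took up 48.0% ± 7.42 (SD, n = 6) and 50.1% ± 10.2 (SD, n = 5) of island length.

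The profile across the island end shows where the tumours part. Up to 50 kb outside an island the groups overlapped in every bin, at 22.3 to 29.6 sites per Mb in K27M and 17.9 to 29.4 in WT tumours as means of bins. The last 0.5 kb before the end held the fewest outside sites in the mean of both groups. From the end inwards the K27M mean rose from 33.8 sites per Mb in the first 0.5 kb to 50.3 at 3 to 4 kb, then fell to 28.9 at 20 to 50 kb. The highest of the bins inside islands lay between 2 and 5 kb from the end in each K27M tumour. The WT mean stayed between 20.5 and 23.6 sites per Mb over the first 5 kb and fell to 11.6 at 20 to 50 kb. Inside islands, WT tumours 8 and 9 were highest in the outermost 0.5 kb, whereas tumours 7, 10 and 11 were highest at 3 to 4 kb. From 5 kb inwards the lowest K27M tumour lay above the highest WT tumour in every bin, at 34.8 against 28.9 sites per Mb for 5 to 10 kb.

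**Figure D2:**
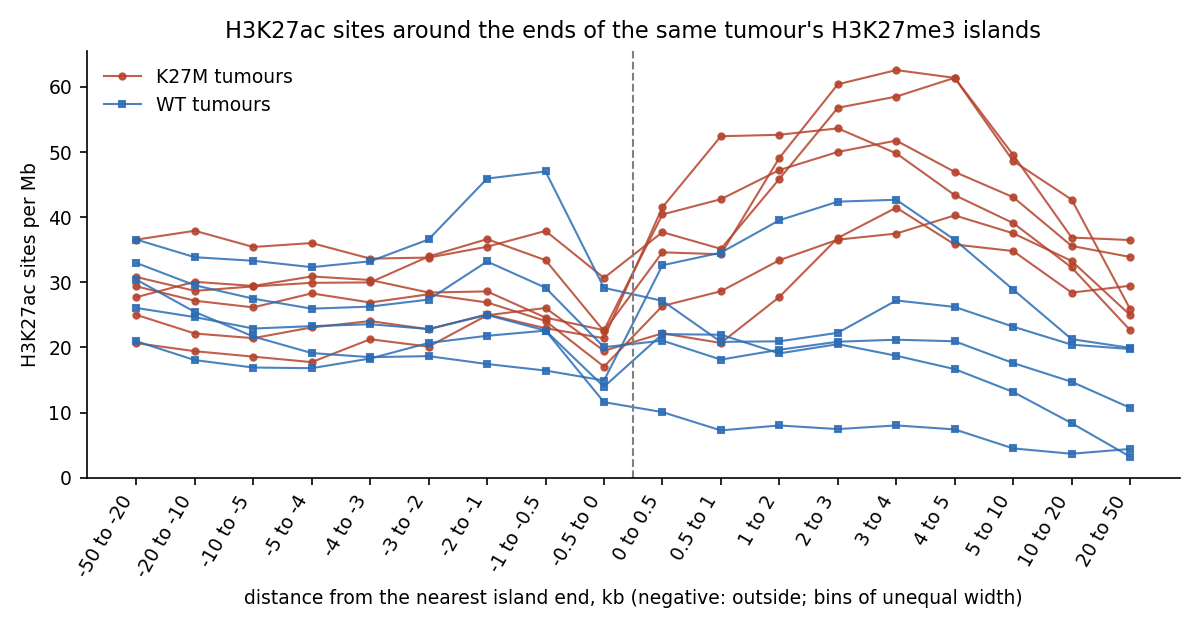
H3K27ac sites per Mb (vertical axis) by distance of the site from the nearest island end in kb (horizontal axis, negative outside, positive inside, bins of unequal width), 1 line per tumour. Inside the end the K27M lines (circles) climb to 40.3 to 62.6 sites per Mb at 2 to 5 kb, while 4 of the 5 WT lines (squares) peak between 10.1 and 27.2. Bins further inside draw on wider islands only.

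Sites lay in islands slightly narrower than the one that holds the tumour's median island base, in every tumour. The median island at a site was 8.2, 10.8, 7.0, 10.4, 6.2 and 10.4 kb wide in K27M tumours 1 to 6, against 8.6, 11.4, 7.4, 11, 8.0 and 12.2 kb at the median base. In WT tumours 7 to 11 it was 7.6, 6.2, 8.8, 11.6 and 5.0 kb wide, against 8.6, 8.4, 12.4, 11.8 and 5.8 kb. The log2 ratio was -0.15 ± 0.12 (SD, n = 6) for K27M and -0.27 ± 0.19 (SD, n = 5) for WT tumours, and the difference of 0.12 ± 0.10 (SE) was within the spread (exact permutation p = 0.225, adjusted 0.27). Site density fell with island width in both groups. Islands up to 2 kb held 61.1 sites per Mb ± 23.0 (SD, n = 6) for K27M and 43.6 ± 26.8 (SD, n = 5) for WT tumours, and these hold 2.20% and 2.59% of island length. Islands wider than 32 kb held 27.3 ± 4.56 and 11.99 ± 6.50 sites per Mb. The groups overlapped in each width class up to 16 kb and did not overlap above it, where the lowest K27M tumour held 31.9 and the highest WT tumour 26.1 sites per Mb at 16 to 32 kb. WT tumour 9 had the steepest fall, from 87.4 sites per Mb in the narrowest class to 7.48 in the widest.

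Reads per kb of island, the density of H3K27me3 reads in a called island, were slightly higher at sites than at the median island base in all 11 tumours. At sites the medians were 36.3, 35.3, 28.2, 32.5, 26.1 and 55.0 reads per kb in K27M tumours 1 to 6 and 25.4, 27.5, 27.2, 44.0 and 23.9 in WT tumours 7 to 11. At the median base they were 31.6, 31.5, 25.9, 31.2, 24.8 and 50.8 in the K27M and 24.1, 25, 26.9, 41.1 and 21.7 in the WT tumours. Because total depth is unknown, these levels compare within a tumour only. The log2 ratio was 0.12 ± 0.05 (SD, n = 6) for K27M and 0.09 ± 0.05 (SD, n = 5) for WT tumours, and the difference of 0.03 ± 0.03 (SE) did not pass the exact permutation test (p = 0.381).

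Behind these medians lay a rise of site density with island reads per kb that levelled off or turned down at the top. When each tumour's island length was cut into 4 equal bands by reads per kb, K27M tumours held 23.7, 39.0, 60.4 and 43.7 sites per Mb from the lowest to the highest band as group means. WT tumours held 13.4, 19.3, 25.4 and 23.8. The step from the lowest to the second highest band was 2.65-fold ± 0.688 (SD, n = 6) for K27M and 1.87-fold ± 0.333 (SD, n = 5) for WT tumours, above 1 in all 11. The highest band lay below the one before it in 5 of 6 K27M tumours, all but tumour 3, and in WT tumours 7, 8 and 9. K27M tumour 5 fell furthest, from 81.7 to 29.3 sites per Mb. In islands up to 4 kb wide the densest band held 5.01-fold ± 0.833 (SD, n = 6) as many sites per Mb as the thinnest in K27M and 4.03-fold ± 0.979 (SD, n = 5) for WT tumours, over 1 in every tumour. Each of these bands held at least 34 sites. In islands wider than 16 kb the thinnest band held fewer than 20 sites in 5 tumours (12 and 10 in K27M tumours 1 and 5, and 13, 3 and 1 in WT tumours 7, 8 and 11), whose ratios are left out. In the other 6 tumours the ratio in wide islands ran from 0.858 in WT tumour 9 to 3.41 in K27M tumour 2, below the same tumour's ratio in narrow islands in 6 of 6. The narrow, densely marked islands held most sites per Mb in each tumour except K27M tumour 5, at 56.9 to 158.2 in K27M and 31.2 to 99.95 in WT tumours. In K27M tumour 5 the second highest band of narrow islands held 131.9 sites per Mb against 128.4 in the highest.

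**Figure D3:**
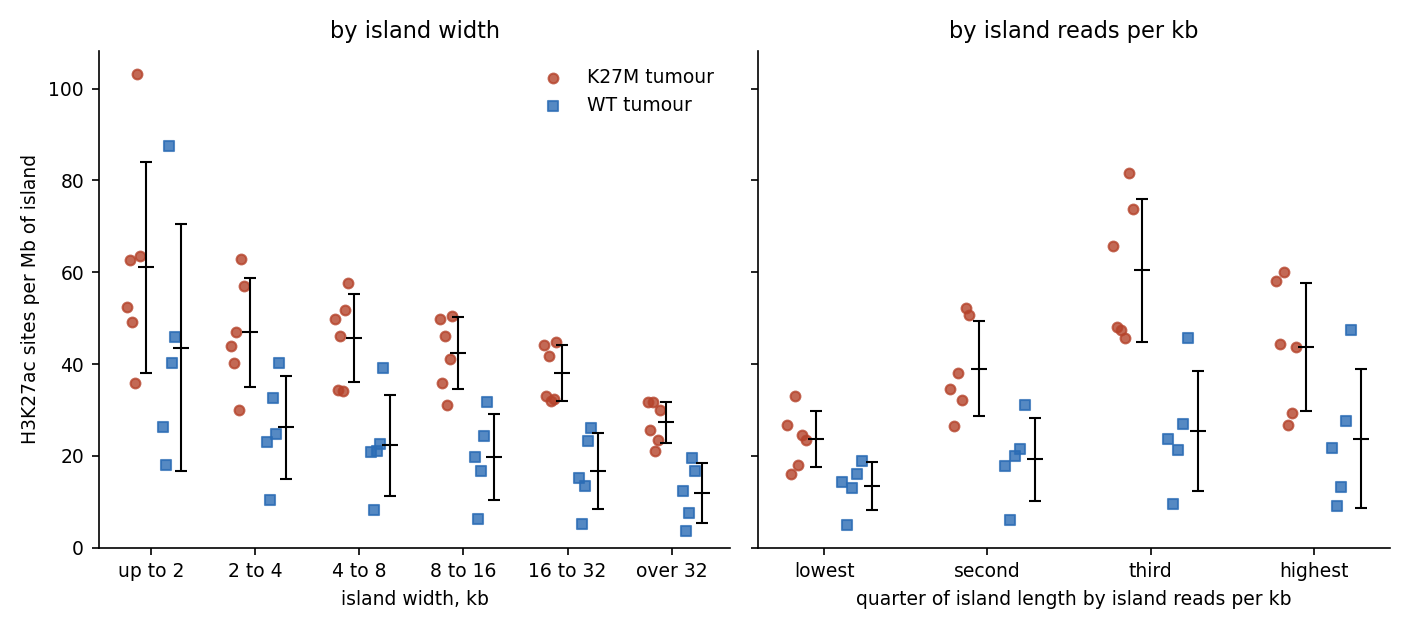
H3K27ac sites per Mb of island (vertical axis) by island width in kb (left) and by bands of equal island length ranked by reads per kb (right). Points are tumours (circles K27M, squares WT) with mean and SD. Density falls with width in both groups, and the K27M mean rises to 60.4 sites per Mb in the second highest band before it falls to 43.7 in the highest.

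To see whether the difference lay with the sites or with the islands, each tumour's H3K27ac list was laid over every other tumour's islands. Over K27M islands, interiors held more sites than outside in all 30 pairs with a list of another K27M tumour and in all 30 pairs with a WT list, at median log2 ratios of 1.36 and 1.31. Over WT islands the ratio was above 0 in 12 of 30 pairs with a K27M list, at a median of -0.12, and in 12 of 20 pairs with the list of another WT tumour, at a median of 0.15. These pairs share lists and are given as a description. Averaged per island list over all 11 H3K27ac lists, the tumour's own included, the log2 ratio was 1.31 ± 0.25 (SD, n = 6) for K27M islands and -0.07 ± 0.38 (SD, n = 5) for WT islands. Averaged per H3K27ac list over all 11 island lists, own included, it was 0.64 ± 0.14 for K27M and 0.73 ± 0.22 for WT lists. A tumour's own sites were not generally scarcer in its islands than the sites of others: the own value lay below the median of the other 10 lists in 6 of 11 tumours. It was the lowest of all lists in tumours 1, 3 and 8 and the highest in tumour 11. WT tumour 8 had a log2 ratio of -1.31 with its own sites against -0.92 to -0.02 with the others.

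**Figure D4:**
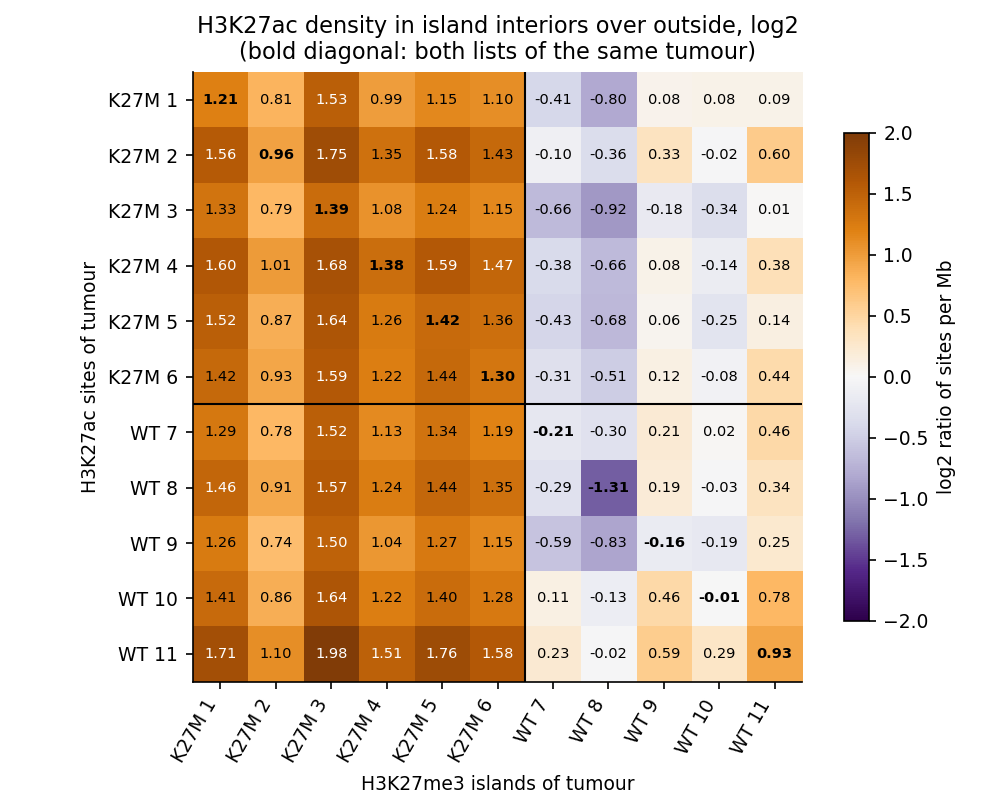
Log2 ratio of H3K27ac sites per Mb in island interiors over outside islands, for the H3K27ac list of each tumour (rows) over the islands of each tumour (columns), with own pairs in bold on the diagonal. The 6 K27M island columns are above 0 for every list, whereas the WT columns range from -1.31 to 0.93.

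Islands were then divided by whether all tumours marked the place. This and the next 3 tests were chosen after the data were seen, and their p-values were adjusted over 5 such measures. All 11 tumours had an island in 3027 merged regions, with a summed island length of 79.0 Mb ± 17.8 (SD, n = 6) for K27M and 82.0 Mb ± 22.2 (SD, n = 5) for WT tumours. In these islands sites stood at 28.5 ± 4.41 and 22.5 ± 10.6 per Mb, log2 ratios of 0.64 ± 0.10 and 0.11 ± 0.57 over outside. WT tumour 11 had the highest value of all, 0.99, and the groups could not be separated (exact permutation p = 0.0563, also after adjustment), but without tumour 11, with the regions redefined over the other 10 tumours, the difference passed, at 0.77. The remaining islands, marked in 10 tumours or fewer, held 61.1 sites per Mb ± 21.5 (SD, n = 6) for K27M and 18.8 ± 9.96 (SD, n = 5) for WT tumours. Their log2 ratios over outside were 1.69 ± 0.51 and -0.24 ± 0.90, from 1.04 to 2.58 in K27M tumours and from -1.63 to 0.82 in WT tumours. The groups did not overlap (exact permutation p = 0.00433, adjusted 0.00541), and the difference was 1.92. It was 1.92 too without WT tumours 8 and 11, with the regions redefined over the remaining tumours. K27M tumour 5, with the least length in these islands, 17.5 Mb, had the highest density in them, 98.7 sites per Mb.

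The reverse view took H3K27ac regions that every tumour had, so that the acetylated places were the same in both groups. Peaks of the 11 tumours merged into 97498 regions, of which 14660 held a site in each tumour. Of these 14660, the share inside the tumour's own islands was 15.0%, 12.4%, 20.7%, 8.42%, 6.82% and 9.73% in K27M tumours 1 to 6. It was 4.84%, 2.76%, 8.68%, 8.01% and 3.23% in WT tumours 7 to 11, and the groups overlapped. Divided by the share of the autosomes that the islands cover, the value was 1.96-fold ± 0.411 (SD, n = 6) for K27M and 0.756-fold ± 0.280 (SD, n = 5) for WT tumours. The lowest K27M tumour stood at 1.32 and the highest WT tumour at 1.06, and the exact permutation test of the log2 values gave p = 0.00433 (adjusted 0.00541). Their difference was 1.43, and 1.34 without WT tumours 8 and 11, with the shared regions redefined over the remaining tumours.

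Interior sites ranked below outside sites in strength in WT tumours, and at a similar or higher level in K27M tumours. Strength is the rank of a peak's -log10 q, the authors' value, as a percentile within its list. Interior sites minus outside sites came to 3.48, -0.38, 1.79, 0.72, -0.25 and 5.44 percentile points in K27M tumours 1 to 6. They came to -6.42, -14.0, -3.41, -5.06 and -8.53 points in WT tumours 7 to 11. The value was below 0 in 5 of 5 WT tumours and 2 of 6 K27M tumours, and the groups did not overlap. The means were 1.80 ± 2.29 (SD, n = 6) points for K27M and -7.49 ± 4.10 (SD, n = 5) for WT tumours. The exact permutation test gave p = 0.00433 (adjusted 0.00541). When every list was reduced to its 35530 strongest sites the groups overlapped, and the K27M mean turned to -0.98 against -10.3 for WT tumours, with p = 0.00866 by the exact permutation test (adjusted 0.0108). Interior sites then ranked below outside sites in the mean of both groups. Without WT tumours 8 and 11 the difference was 6.77 points in place of 9.29. Interior peaks had a median width of 504.5 bp ± 36.5 (SD, n = 6) for K27M and 421 bp ± 29.9 (SD, n = 5) for WT tumours, and outside peaks 480 bp ± 42.2 and 525 bp ± 88.3.

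In-island sites also stood together more often in K27M tumours. Of all in-island sites, 67.2% to 73.4% shared their island with another site in K27M tumours and 37.4% to 64.9% in WT tumours. The means were 69.8% ± 2.79 (SD, n = 6) and 56.5% ± 11.1 (SD, n = 5), without overlap (exact permutation p = 0.00433, adjusted 0.00541). Without WT tumour 8 the difference of the means was 8.45 percentage points in place of 13.2, and without WT tumours 8 and 11 it was 9.64. With the same 10716 islands of most reads in every tumour the groups overlapped, at means of 73.7% and 61.7% (exact permutation p = 0.0173, adjusted 0.0216). This share rises with site density by its construction.

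H3K4me3, a mark of promoters, was listed for K27M tumours 2 and 6 and WT tumours 7, 9 and 10. Outside islands the groups overlapped in the density of its peaks, 10.8 and 10.2 per Mb in the K27M and 11.01, 9.29 and 10.7 in the WT tumours. In interiors they stood at 46.8 and 63.8 per Mb in the K27M and 41.6, 34.8 and 30.7 in the WT tumours, above the outside density in all 5. Of these interior H3K4me3 peaks, 44.0% and 48.1% overlapped an own H3K27ac peak in the K27M tumours, and 26.8%, 27.2% and 42.6% in the WT tumours. Outside islands the shares were 71.5% and 72.7% against 75.2%, 71.2% and 81.7%. Interior groups did not overlap in either measure, but 2 against 3 tumours cannot give an exact permutation p below 0.2. Of interior H3K27ac sites, 73.2% and 78.8% lay on H3K4me3 in the K27M tumours and 77.7%, 84.5% and 67.8% in the WT tumours, against 40.0% to 49.6% of outside sites over all 5. Interior sites without H3K4me3 numbered 9.68 and 11.1 per Mb in K27M and 4.26, 2.23 and 7.52 per Mb in WT tumours, while outside islands the values were 9.57 and 11.7 against 12.6, 8.15 and 14.2.

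**Figure D5:**
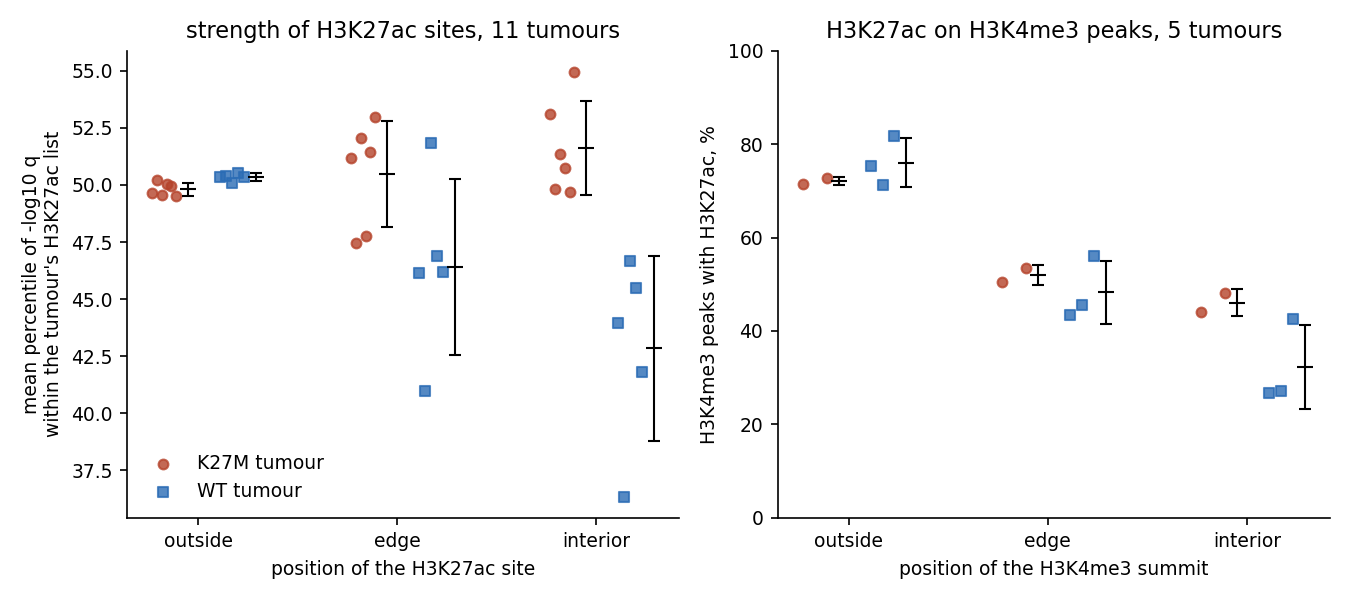
Left, mean percentile of -log10 q of H3K27ac sites within the tumour's own list, outside islands, at the edge (within 2 kb of an end) and in the interior, for 11 tumours (the axis does not start at 0). Right, percent of H3K4me3 peaks that overlap an H3K27ac peak by position of the H3K4me3 summit, for 5 tumours. Points are tumours with mean and SD, and interior sites of WT tumours average the 42.8th percentile against 51.6 in K27M tumours.

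Single places were compared over the 97498 merged regions. In 17153 of them some tumour had its own site inside its own island. Fisher's exact test covered 2717 regions whose number of tumours with the site inside an island could give an unadjusted p under 0.05. Regions with too few or too many such tumours, as with all 11, were left out. After Benjamini-Hochberg adjustment 0 (0%) passed, and 393 had an unadjusted p under 0.05. Of these, 366 were inside islands more often in K27M tumours and 27 in WT tumours. The smallest possible p, 0.00216, needs full separation, and the smallest adjusted p was 0.0764. With this floor a region cannot pass unless many are fully separated, so the 0 does not show that no place differs. Fully separated calls were 73 regions inside an island in all 6 K27M and no WT tumour, 0.426% of the 17153, and 4 regions with the opposite pattern, 0.0233%. Without WT tumours 8 and 11 these counts were 88 and 87, but a WT-only call then needs 3 WT tumours in place of 5. The regions of unadjusted p under 0.05 were then 273 towards K27M and 143 towards WT, a smaller lean than 366 and 27 with all tumours. Without tumour 8 alone or 11 alone the fully separated counts were 80 and 8 or 81 and 11. With the same 10716 islands of most reads in every tumour, 157 regions passed the adjusted test, 155 of them K27M-only and 2 WT-only. H3K27ac was listed in all 11 tumours at 59 of the 73 K27M-only regions, at 0 of the 4 WT-only regions and at 14660 of all 97498 regions. These shares rest on unlike conditions. A K27M-only call requires H3K27ac in all 6 K27M tumours, a WT-only call requires it in all 5 WT tumours, and the count over all regions requires neither. The difference between the shares was not tested. A further 146 regions, 0.851%, lay inside an island in all 11 tumours, and 19 of them in the interior in each; no region lay at an edge in all 11.

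The region with the highest mean percentile of island reads per kb among those interior in all 11 tumours was chr11:118916879-118919515 (build mm9, counted from 1). Its site lay 5.91 to 19.1 kb from the nearer end of islands 21.4 to 61.6 kb wide, and these islands ranked between percentile 97.7 and 99.99 of their lists in reads per kb. Next came chr13:31898657-31901223, in islands 12 to 42.8 kb wide at percentile 95.9 to 99.7, where the -log10 q of the site ran from 2.08 to 21.8. The site at chr8:94323250-94326124 lay in islands 15.0 to 58.8 kb wide at percentile 83.7 to 96.9. The overlap in all 11 tumours and the high island percentiles at these places follow from how the regions were chosen.

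The K27M-only regions of highest mean -log10 q lay in islands near the middle of their lists, at mean percentiles of reads per kb of 48.5, 54.5 and 57.8 over the K27M tumours. At chr14:35315915-35317877 all 11 tumours had a site, with -log10 q of 45.9 to 288.0. It was interior in K27M tumours 1, 4 and 6 and at an edge in 2, 3 and 5, in islands 1.4 to 28.8 kb wide at percentile 1.15 to 90.2, and outside any island in all 5 WT tumours. At chr14:106288542-106296373 the islands of the K27M tumours were 2.4 to 8.8 kb wide at percentile 12.9 to 95.5, with the site interior in tumours 1 and 6. At chr3:121128216-121134097 they were 2.0 to 10.0 kb wide at percentile 35.6 to 87.1, with the site at an edge in tumour 5 alone. In these 3 regions all 11 tumours had an H3K27ac site, and the island difference follows from how the regions were chosen. At chr3:121128216-121134097 the -log10 q of the site was 36.7 to 93.4 in K27M and 106.0 to 219.3 in WT tumours. At both regions on chromosome 14 the groups overlapped in -log10 q. Total depth is unknown and these values rank sites within a list, so they do not show a difference in H3K27ac between tumours. The 3 WT-only regions named had mean -log10 q of 14.5, 14.1 and 6.85 over the tumours with a site. The first, chr16:32164038-32165630, had its site at an edge in each WT tumour, in islands 1.8 to 4.4 kb wide with -log10 q up to 31.4, and 3 K27M tumours had a site there outside islands. At chr13:52678238-52679248 1 K27M tumour had a site outside islands, and at chr17:33917662-33918586 3 did.

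The single island with most own sites was nearly the same place in most K27M tumours. In tumours 1, 2, 3, 5 and 6 it began between 86627801 and 86637201 on chromosome 7 and ended between 86692600 and 86763800, with 23, 29, 24, 29 and 36 sites. WT tumour 9 had its richest island there too, chr7:86636601-86660800, 24.2 kb wide with 10 sites. K27M tumour 4 had 27 sites in chr6:52093201-52277000, at 225.5 reads per kb, and WT tumour 7 had 10 in chr6:52146401-52232800, inside that interval. WT tumours 10 and 11 had 16 and 20 in overlapping islands, chr11:95957601-96380600 and chr11:96087801-96208400. WT tumour 8 had at most 6, in chr8:94856001-94925600. The richest island held 23 to 36 sites in K27M and 6 to 20 in WT tumours.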

How the data were processed

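H3K27me3, H3K27ac and H3K4me3 were profiled by chromatin immunoprecipitation and sequencing of snap-frozen tumours, with Drosophila S2 chromatin added, per the labels' protocols. Scale factors from that spike-in were not used here. The submitters' processing notes name SICER 1.1, MACS2, BWA 0.7.12, bedtools 2.25.0, SAMtools, Picard and R 2.14.0 without roles, with mm9 as the build. A deposited list is that of 1 sample. The deposited H3K27me3 lists give a read count per island, and their file names give a 200 bp window and a 600 bp gap. 1 base was added to island ends. The deposited narrowPeak lists give each peak a -log10 q-value, a -log10 p-value, a score and a fold (ratio to background), the authors' own values, used to rank or filter within a list. The lowest -log10 q was 2.00.

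Sites were placed by the summit column of the deposited lists. Outside densities used autosomes up to the last listed interval, 2472 Mb. Nothing in the labels says that tumours came from separate animals, so p-values refer to the spread among these tumours, which may be technical. Groups were compared over tumours by two-sided exact permutation tests (all 462 arrangements, threshold 0.05 after Benjamini-Hochberg adjustment over 6 measures), and single regions by Fisher's exact test. Functions were tested on simulated data. Software was SciPy 1.17.1, matplotlib 3.10.9, pandas 2.3.3 and numpy 2.4.6 in Python 3.11.15. Alternatives covered edge distance, site placement, peak strength, island number, length and width, joined islands, sex, and each tumour left out.

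The members, lists and tests were chosen with earlier results of these data known. Named regions are up to 3 per rule: interior or edge in all 11 tumours by mean percentile of island reads per kb, fully separated calls by mean -log10 q, and the island with most own sites. The gene reference at hand is of another build, so regions carry positions only, gene and cell type lists could not be applied, the labelled tissue was not checked against markers, and no sequence is shown.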

Additional observations from a re-analysis of the deposited data

Results flagged for a closer look

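In WT tumour 8, 37.4% of in-island sites shared their island with another site, far below the other 4 WT tumours at 57.0% to 64.9%, a gap large for the range of a group of 5. Of 22 groups of values checked in this way 1 stood out, and chance alone gives about 1 in 20. The same tumour had the fewest in-island sites, 1204, and the lowest interior density, 6.21 sites per Mb.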

How the results depend on the processing

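The higher interior density of K27M tumours over outside kept its direction in all 11 alternatives that left out 1 tumour and 14 others, with no overlap between groups except at a 1 kb edge. Of those others, permuting genotype within sex changes p alone. Keeping islands of at least 4 kb leaves the interiors as they are (1.42). The difference was 1.14 to 1.70 (log2) on leaving out 1 tumour. Its adjusted exact p ran from 0.013 to 0.64 over other settings and from 0.0286 to 0.0571 on leaving out 1 tumour. It missed the threshold within sex (1.43), in females alone (1.51), without WT tumours 8 and 11 (1.41, a choice made after the data were seen) and without WT tumour 7, 8, 9 or 10. In females alone no exact p can be below 0.133. The exact p was 0.00952 without WT tumour 7, 8, 9 or 10, and 0.0238 without WT tumours 8 and 11. Each is the smallest that the tumours left can give, and the groups did not overlap, so no lower p was possible there.

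The edge over interior difference (-0.37) stayed negative throughout, -0.43 to -0.31 on leaving out 1 tumour, and missed the threshold in 8 of those 11 fits. It also missed it with a 5 kb edge (-0.37), with whole peaks inside (-0.30), with islands under 2 kb apart joined (-0.34), within sex (-0.37), in females alone (-0.28) and without WT tumours 8 and 11 (-0.40). Its adjusted p ran from 0.0286 to 0.64. Without WT tumours 8 and 11 the groups did not overlap, and the exact p was the smallest possible, 0.0238. The cause was not tested. The share inside islands passed with equal island numbers (5.17 percentage points), equal island length (3.98) and without K27M tumour 5, in a range of 4.33 to 7.01 on leaving out 1 tumour. Without WT tumours 8 and 11 the width difference was 0.08 and the reads difference 0.06. The edge share passed in islands of at least 10 kb (-5.37 points). The width difference reversed in females alone (-0.085). The reads difference reversed with equal island length (-0.028), in islands of at least 10 kb (-0.027) and in females alone (-0.018).

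Of the measures chosen after the data were seen, those that passed missed the threshold in females alone, at 2.57 for islands not marked by all tumours, 1.64 for shared H3K27ac regions, 11.1 percentile points for strength and 14.7 percentage points for shared islands. The difference in islands marked by all tumours ranged from 0.43 to 0.77 on leaving out 1 tumour and passed without WT tumour 11 and without WT tumours 8 and 11 (0.70). Regions shared by all tumours were redefined over the tumours kept in each such setting. The count of regions that passed the adjusted test was 157 with equal island numbers, 155 of them K27M-only. The count of K27M-only regions ran from 78 to 171 on leaving out 1 tumour, with 171 without K27M tumour 5, 122 without WT tumour 9 and 136 without WT tumour 10. No paired analysis was possible because the K27M tumours are numbered 1 to 6 and the WT tumours 7 to 11 and share no number. Without total depth, a region without an island cannot be told from one just under the call.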

Other observations

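Most places where a tumour carried its H3K27ac site inside its own island were not shared. Of 13267 merged regions with such a site in any K27M tumour, 52.7% had it in 1 tumour and 7.04% in all 6. Of 8838 in any WT tumour, 61.1% had it in 1 tumour and 3.01% in all 5. The groups differ in size, and the like shares for all H3K27ac regions or all islands of each group were not computed. These values therefore do not show that in-island sites are less shared than other sites. Over all 97498 merged regions, 14660 held H3K27ac in every tumour. Of these 14660 regions, 10809 lay outside islands in each of the 11, and of all 97498 regions 80345 had no site inside an island in any tumour.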
